A study of Mus musculus with 6 samples.

Results

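The genes described here build the cornified envelope, the protein shell that replaces the plasma membrane of dead keratinocytes at the surface of skin, or belong to the epidermal differentiation complex, the stretch of mouse chromosome 3 that holds most of them. They were chosen by name: every gene in the count data whose symbol begins with Sprr or Lce and a digit, and 16 genes named singly (Lor, Flg, Flg2, Hrnr, Rptn, Ivl, Tchh, Crnn, Cdsn, Tgm1, Tgm3, Tgm5, Casp14, Csta, Evpl and Ppl). Of 53 symbols found this way, 48 reached 1 CPM (the count scaled to library size) or more in 3 or more of the 6 libraries and were tested, among 15009 genes tested in all. The 5 that did not were Sprr2a1, Sprr2a2, Sprr2j-ps, Sprr2k and Sprr3. At the edge of this filter, the third-highest library value was 1.89 CPM for Sprr2i and 2.0 CPM for Sprr2b, which passed, and 0.942 CPM for Sprr3 and 0.495 CPM for Sprr2j-ps, which did not.

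RNA-Seq libraries were made from the top lip of adult female mice on the C57BL/6J background, 1 library per mouse. The WT group held 3 wild type mice and the KO group held 3 mice with the targeted allele Gtf2ird1 tm1Hrd, and the labels give no treatment. Gtf2ird1 encodes a transcription factor of the TFII-I family, and the human gene lies in the region deleted in Williams-Beuren syndrome. As a model, the KO group is 1 mutant line in bulk tissue, its lips were described by the study as enlarged and wrinkled, and which part of the gene the allele removes is not given in the sources used here. In bulk tissue, fewer cells of a type and less RNA per cell cannot be told apart.

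Keratinocytes divide in the basal layer and, as they move outward, switch on keratins of the suprabasal layers and then the cornification genes. Transglutaminases cross-link involucrin, envoplakin and periplakin beneath the membrane and then add loricrin, the small proline-rich (SPRR) proteins and the late cornified envelope (LCE) proteins, while filaggrin and its relatives bundle keratin inside the cell. Loricrin and the Lce1 genes are known from normal epidermis, and several Sprr2 and Lce3 genes are known to be induced when the barrier is injured or inflamed.

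Total counts on genes ranged from 20164081 to 29491767 per library, so that 3 counts, the limit that a count of 0 allows for counting error alone, came to between 0.0985 and 0.153 CPM. Counts of the targeted gene were higher, not lower, in the libraries labelled KO. Gtf2ird1 had 78.0, 70.0 and 70.5 CPM in WT1, WT2 and WT3 and 166, 162 and 144 CPM in KO1, KO2 and KO3 (log2 fold change 1.11 with a standard error, SE, of 0.13, adjusted p = 0.0018). Gene-level counts cannot tell transcripts of the altered allele from intact ones, so KO and WT below mean the libraries that carry those labels, and every fold change is KO against WT. WT1 stood apart in genes of the oral mucosa, with 1983 CPM of Krt4 and 2799 CPM of Krt13, against at most 115 and 111 CPM in the other 5 libraries. Krt4 and Krt13 encode the keratin pair of non-cornified stratified epithelium. Among the cornification genes, Sprr3, known from oral and oesophageal epithelium, followed the same pattern, with 104 CPM in WT1 and between 0.230 and 1.82 CPM in the other libraries.

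Sequence upstream of the start site is shown for 5 members that rose and for Lor, which did not pass the test, to show the motifs that were searched. The 250 bases before the RefSeq start (build GRCm38.p6) are written 5′ to 3′ on the gene's own strand. In Sprr2e, Sprr2h, Ivl and Lor the capitals mark TGANTCA, the motif of AP-1 (Fos and Jun dimers), which reads the same on both strands. In Lce3c and Lce3d the capitals mark GCNNNGTCA, which is the antioxidant response element core TGACNNNGC read on the opposite strand.
Sprr2e (chr3:92351893-92352142, plus strand): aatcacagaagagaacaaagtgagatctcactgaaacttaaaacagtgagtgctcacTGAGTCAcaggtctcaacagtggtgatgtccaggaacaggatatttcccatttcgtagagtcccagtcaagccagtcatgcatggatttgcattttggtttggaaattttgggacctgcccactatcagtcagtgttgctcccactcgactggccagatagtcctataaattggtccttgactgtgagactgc
Sprr2h (chr3:92385435-92385684, plus strand): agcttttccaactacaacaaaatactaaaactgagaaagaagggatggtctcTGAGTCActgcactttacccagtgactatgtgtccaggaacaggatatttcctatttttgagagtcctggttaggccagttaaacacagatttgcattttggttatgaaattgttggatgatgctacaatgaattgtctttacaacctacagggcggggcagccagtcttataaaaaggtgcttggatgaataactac
Ivl (chr3:92573736-92573985, minus strand): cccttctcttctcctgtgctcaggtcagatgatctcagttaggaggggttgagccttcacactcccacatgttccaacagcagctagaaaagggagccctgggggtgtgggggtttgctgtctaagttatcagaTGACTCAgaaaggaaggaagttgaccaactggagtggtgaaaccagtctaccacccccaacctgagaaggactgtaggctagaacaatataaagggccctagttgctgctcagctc
Lor (chr3:92083143-92083392, minus strand): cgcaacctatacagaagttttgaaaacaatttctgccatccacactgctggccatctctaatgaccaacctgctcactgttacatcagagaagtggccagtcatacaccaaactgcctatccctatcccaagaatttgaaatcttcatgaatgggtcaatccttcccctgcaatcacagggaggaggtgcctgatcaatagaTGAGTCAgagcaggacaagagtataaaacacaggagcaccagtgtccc
Lce3c (chr3:92944236-92944485, plus strand): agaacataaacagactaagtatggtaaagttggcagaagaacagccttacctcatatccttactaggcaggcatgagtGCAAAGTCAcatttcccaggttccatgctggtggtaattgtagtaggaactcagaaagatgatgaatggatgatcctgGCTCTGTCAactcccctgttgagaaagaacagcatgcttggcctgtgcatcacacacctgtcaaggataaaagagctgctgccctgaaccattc
Lce3d (chr3:92957140-92957389, plus strand): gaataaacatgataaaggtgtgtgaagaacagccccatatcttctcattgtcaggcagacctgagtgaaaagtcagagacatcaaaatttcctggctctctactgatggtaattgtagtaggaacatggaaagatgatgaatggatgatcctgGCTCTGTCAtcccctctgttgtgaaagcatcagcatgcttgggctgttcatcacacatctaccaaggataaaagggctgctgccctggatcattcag

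Windows under the same symbol were found for 43 of the 48 members, all but Lce1f, Sprr2g, Evpl, Ppl and Csta. TGANTCA was present in 14 of these 43 windows (32.6%), against 6.75% of the 32851 RefSeq promoter windows searched. It was found in 6 of 7 Sprr2 windows, always between 193 and 198 bases before the start, and in 0 of 13 Lce1 and 0 of 6 Lce3 windows. Among the members described below as higher in KO, 5 of 8 with a window held it (Sprr2e, Sprr2h, Sprr1b, Ivl and Rptn). The windows of Lor, Sprr1a, Flg, Flg2 and Crnn, which did not pass edgeR's quasi-likelihood test, held it too. TGACNNNGC on either strand was found in 8 of 43 windows (18.6%) against 10.2% of all windows, including Lce3c, Lce3d and Lce3e, where a copy lay 94, 97 and 95 bases before the start. TATAAA, the TATA box, on either strand was found in 19 windows (44.2%, against 12.4% of all). A copy of TGANTCA and one of TGACNNNGC overlapped in Sprr1a, 146 and 148 bases before its start. The windows of Sprr2d and Sprr2e were identical at 89.9% of aligned bases, those of Sprr2e and Sprr2h at 69.4% and those of Lce3c and Lce3d at 81.5%. These matches describe letters in the windows.

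Cornification genes differed in unequal measure between the genotypes. Sprr2e, Sprr2g, Sprr2h, Lce3c, Lce3d, Sprr1b, Rptn, Ivl and Casp14 rose in KO, by 2.11-fold for Casp14 and up to 34.6-fold for Sprr2e, whereas Lor and Sprr1a did not pass the test. With edgeR's quasi-likelihood test and an adjusted p under 0.05, 9 of the 48 members rose in KO and 0 fell, where 4.38% of all tested genes rose and 2.09% fell. An unadjusted p under 0.05 was found for 22 of the 48 members and for 29.6% of all tested genes. Of these 22, Lce1m and Sprr4 had lower values in KO. Over the 48 members the log2 fold changes had a median of 0.60, against -0.02 over all tested genes, and 39 members had a positive and 9 a negative value. Sprr2e, Sprr2f, Sprr2g and Sprr2i reached 1 CPM in 3 libraries only through KO, so the filter let them in where they were high. Among the other 44 members, which had at least 1 CPM in every WT library, 7 rose and the median was 0.46. All 3 KO libraries lay above all 3 WT libraries in 12 of the 48 members (13.5% of tested genes did so) and below them in 2 (18% of tested genes). Among the 44 members with at least 1 CPM in every WT library, these counts were 10 and 2, and 19 had an unadjusted p under 0.05. The members took 1.57% ± 0.216 (SD, n = 3) of the counts of WT libraries and 2.16% ± 0.703 (SD, n = 3) of those of KO libraries, a range of 1.35% to 2.61% in KO that covered all 3 WT values.

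**Figure D1:**
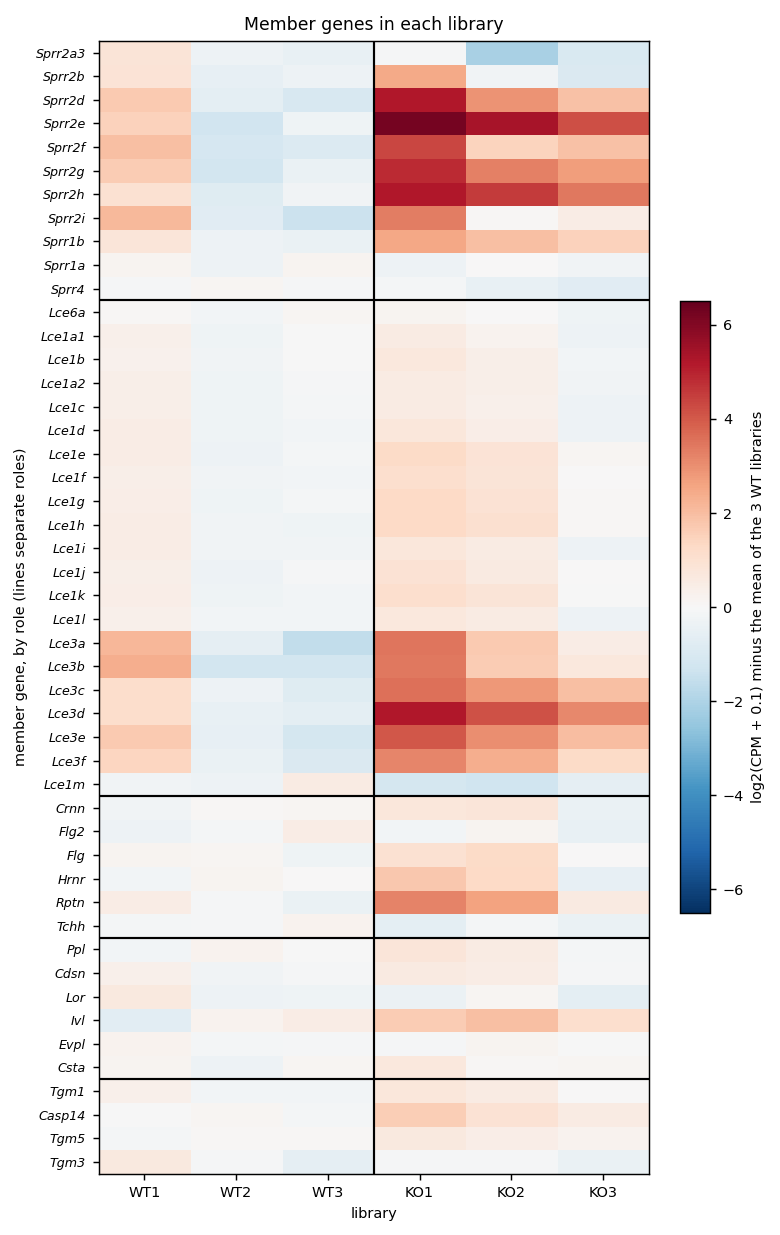
Heat map of the 48 members (rows, by role) in the 6 libraries (columns), coloured by log2(CPM + 0.1) minus the mean of the 3 WT libraries. The red blocks are Sprr2d to Sprr2h, Sprr1b, Lce3a to Lce3f and Rptn, palest in KO3 among the KO libraries for most of them, and WT1 is redder than WT2 and WT3 in the Sprr2 and Lce3 rows.

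Among the SPRR genes, whose products are short cross-bridging proteins of the envelope, 4 of 11 tested rose in KO (Sprr2e, Sprr2g, Sprr2h and Sprr1b) with a median log2 fold change of 1.93 over the 11 and of 2.96 over the 8 Sprr2 genes. Without the 4 Sprr2 genes that passed the filter only through KO, 2 of 7 rose (Sprr2h and Sprr1b), and the medians were 1.02 over the 7 and 2.24 over the 4 remaining Sprr2 genes. Sprr2h had 11.3, 3.22 and 4.71 CPM in WT1 to WT3 and 209, 134 and 60.4 CPM in KO1 to KO3. Its lowest KO library stood above its highest WT library, and the log2 fold change was 4.38 (SE 0.60, adjusted p = 0.0045). Sprr2e was nearly silent in WT, with 2.5, 0.297 and 0.673 CPM (69, 7 and 15 counts), and had 68.3, 38.6 and 17.0 CPM in KO (log2 fold change 5.11, SE 0.78, adjusted p = 0.0079). Sprr2g, annotated as a polymorphic pseudogene, had 3.55, 0.424 and 0.763 CPM in WT and 33.6, 11.5 and 7.72 CPM in KO (log2 fold change 3.44, SE 0.81, adjusted p = 0.047). In all 3 of these genes WT1 was the highest WT library and KO3 the lowest KO library, without overlap between genotypes. Sprr1b, a cornifin gene known to be induced in stressed and squamous epithelium, had 181, 81.3 and 75.9 CPM in WT and 587, 406 and 294 CPM in KO (log2 fold change 1.93, SE 0.38, adjusted p = 0.027). Here too, the genotypes did not overlap.

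The rest of the SPRR family differed less evenly. Sprr2d lay above WT in every KO library, with 9.38, 1.74 and 1.30 CPM in WT and 105, 22.1 and 10.9 CPM in KO, but with a log2 fold change of 3.46 it had an adjusted p of 0.078. It passed by the exact test (adjusted p = 0.00032) and by DESeq2 (adjusted p = 0.027). KO1 was the highest KO library, and KO3 lay just above WT1. Sprr2f, Sprr2i and Sprr2b had log2 fold changes of 2.48, 1.23 and 1.02 with adjusted p-values from 0.153 to 0.472, and their KO and WT libraries overlapped. Of these, Sprr2f passed by the exact test (adjusted p = 0.023) but not by DESeq2 (0.154). Without KO1, the values of Sprr2b and Sprr2i turned to -0.66 and -0.53. Sprr2a3 ran the other way, from 6.55 ± 3.59 CPM in WT to 3.30 ± 2.20 CPM in KO (SD, n = 3 each), without passing the test (log2 fold change -1.02, adjusted p = 0.240). Of its transcript sequence, 36.2% of 100-base windows were also found in Sprr2a1 or Sprr2a2, and 92.5% and 92.8% of the windows of these 2 untested genes were shared with other genes, so unique assignment can undercount all 3. Sprr1a, which had the highest level per length of the members in WT, with 1332 CPM per kb of exon, had 1198, 845 and 1180 CPM in WT and 852, 1087 and 898 CPM in KO (log2 fold change -0.18, adjusted p = 0.547). Its KO libraries all lay within the WT range, and the log2 fold change was 0.039 with the trend on gene length removed, an alternative chosen after seeing the data. Sprr4 had 151 ± 13.6 CPM in WT and 113 ± 23.8 CPM in KO (SD, n = 3 each), with every KO library below every WT library and an adjusted p of 0.156. Summed over the 12 Sprr2 symbols, the level was 53.9, 14.2 and 14.9 CPM in WT and 471, 213 and 107 CPM in KO.

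**Figure D2:**
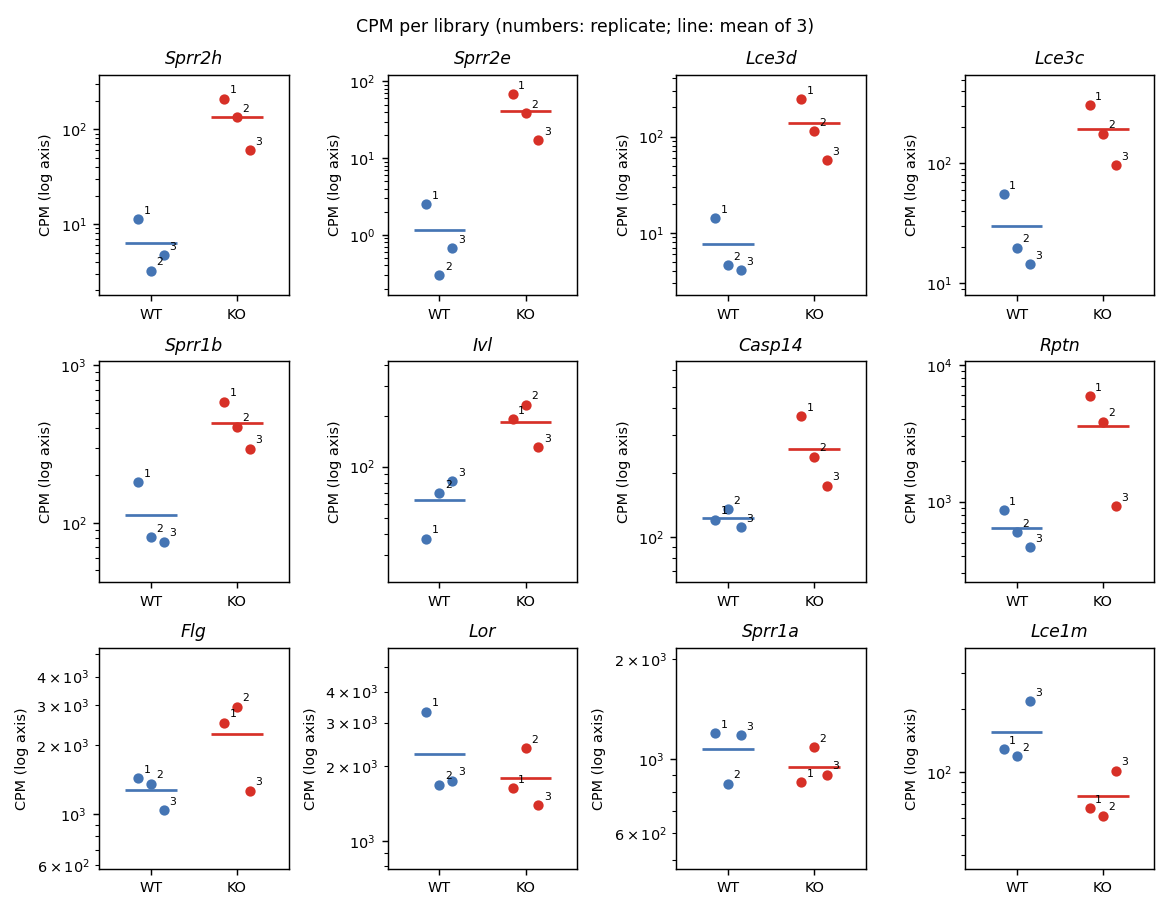
CPM on log axes for 12 members, with 1 point per library (labelled by replicate) and a line at the mean of each genotype. The KO points lie above the WT points in the 8 panels from Sprr2h to Rptn, the genotypes overlap in Flg, Lor and Sprr1a, and the KO points of Lce1m lie below those of WT.

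The LCE genes encode small cysteine-rich proteins added late to the envelope. Of the 6 Lce3 genes, 2 rose in KO and the median log2 fold change was 2.40. By the exact test 4 of the 6 rose and by DESeq2 3 (7.76% and 9.5% of all tested genes). Of the 14 Lce1 genes, 0 passed the test in edgeR's quasi-likelihood fit, with a median of 0.34, 5 at an unadjusted p under 0.05, 3 higher and 1 lower by the exact test, and 2 higher and 1 lower by DESeq2. Lce3d had 14.2, 4.62 and 4.08 CPM in WT and 244, 114 and 56.5 CPM in KO (log2 fold change 4.17, SE 0.68, adjusted p = 0.011). Lce3c, with the higher WT level of the pair per length (52.8 against 15.6 CPM per kb of exon), had 55.6, 19.9 and 14.4 CPM in WT and 306, 178 and 96.5 CPM in KO (log2 fold change 2.69, SE 0.58, adjusted p = 0.036). In both genes every KO library exceeded every WT library, and WT1 again stood highest in WT. Lce3e had the same fold change as Lce3c to 2 decimals, 2.69, with a larger SE of 0.79 and an adjusted p of 0.078. For Lce3e the exact test and DESeq2 gave an adjusted p of 0.00039 and 0.036. Its KO libraries, from 37.0 to 150 CPM, lay above its WT libraries, from 4.08 to 29.8 CPM. Lce3f had a log2 fold change of 2.11 (adjusted p = 0.090, against 0.0016 by the exact test and 0.062 by DESeq2), and KO3 at 45.9 CPM lay below WT1 at 49.9 CPM.

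Lce3a and Lce3b, the 2 Lce3 genes at the other end of the cluster, had log2 fold changes of 1.51 and 1.36 and adjusted p-values of 0.345 and 0.402. In both, WT1 exceeded KO2 and KO3: Lce3a had 43.5 CPM in WT1 against 30.7 and 13.4 CPM, and Lce3b had 33.2 CPM against 20.2 and 10.3 CPM. Without WT1 their log2 fold changes were 3.41 and 3.61, with adjusted p-values of 0.143 and 0.10. Between 24.1% and 43.0% of the 100-base windows of Lce3c, Lce3d, Lce3e and Lce3f occurred in another gene of the subfamily, so unique assignment can undercount each of these 4 and their sum. The summed level was 150, 45.0 and 32.4 CPM in WT and 875, 466 and 236 CPM in KO.

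The Lce1 genes, which form the larger LCE cluster, had sums of 2356 to 3630 CPM in WT and 2486 to 4790 CPM in KO. Lce1a1, the highest of them per length in WT at 640 CPM per kb, had 556, 367 and 430 CPM in WT and 648, 526 and 357 CPM in KO (log2 fold change 0.18, SE 0.25, adjusted p = 0.651). KO3 was the lowest of its 6 libraries. The 4 neighbours Lce1e, Lce1f, Lce1g and Lce1h had the highest values of the subfamily, log2 fold changes from 0.70 to 0.86 (adjusted p between 0.127 and 0.152). In each of them KO1 and KO2 lay above all WT libraries while KO3 lay within the WT range. Lce1m, at the far side of the Lce3 cluster from the other Lce1 genes, was the exception, with 129, 119 and 218 CPM in WT and 67.2, 62.0 and 102 CPM in KO. Every KO library was below every WT library, and the log2 fold change of -1.02 (SE 0.28) had an adjusted p of 0.069. Lce6a hardly differed, with 59.6 ± 6.99 CPM in WT and 59.6 ± 9.08 CPM in KO (SD, n = 3 each).

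**Figure D3:**
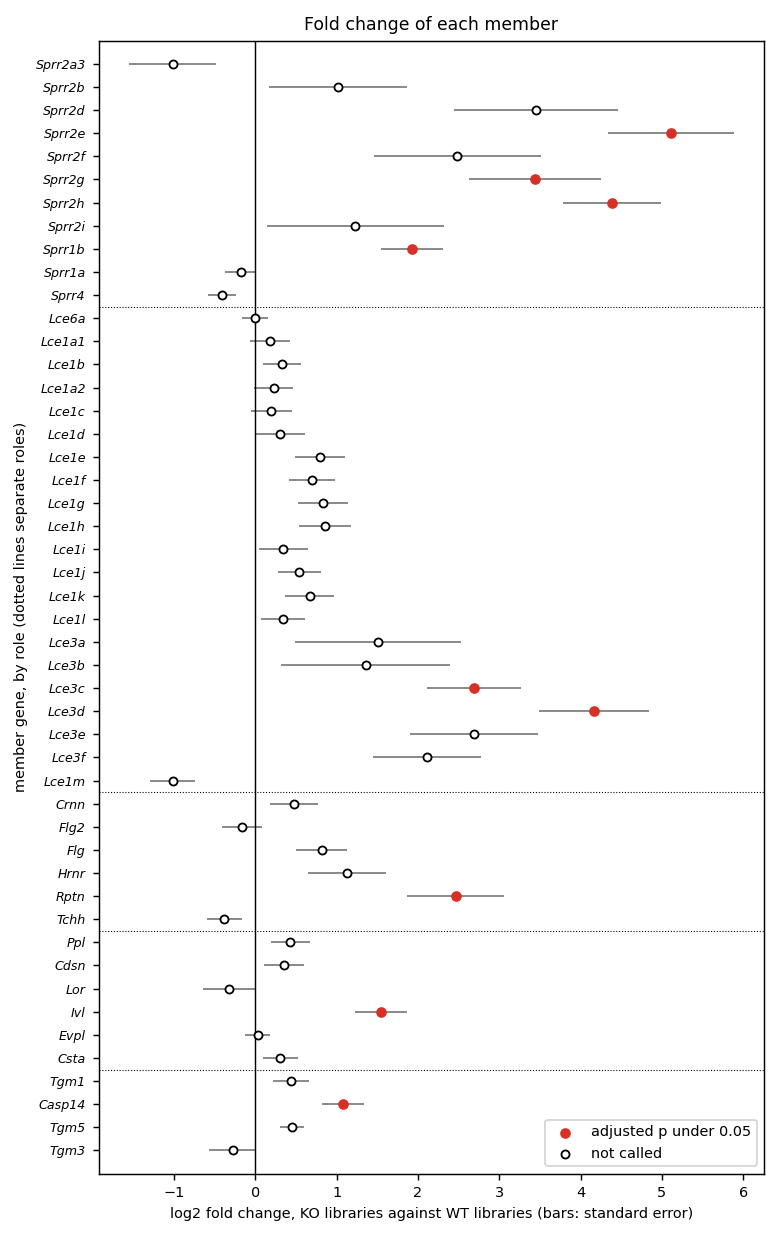
Log2 fold change of KO against WT libraries (horizontal axis) for each of the 48 members, with bars of 1 standard error. Filled red points are the 9 members with an adjusted p under 0.05, all to the right of 0, from Casp14 at 1.08 to Sprr2e at 5.11, and the longest bars belong to Sprr2 genes and to Lce3a and Lce3b.

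The S100-fused proteins join a calcium-binding S100 domain to long repeats, and 1 of 6 rose in KO. Rptn, encoding repetin, had 867, 601 and 466 CPM in WT and 5899, 3838 and 922 CPM in KO. KO3 was the lowest KO library by far and stood just above WT1, and the log2 fold change of 2.46 (SE 0.60) had an adjusted p of 0.0499. Hrnr, encoding hornerin, had 449, 575 and 513 CPM in WT and 1738, 1262 and 354 CPM in KO, so KO1 and KO2 lay above WT and KO3 below it (log2 fold change 1.13, adjusted p = 0.162). Flg, encoding profilaggrin, which aggregates keratin filaments and yields natural moisturising factor, had 1434, 1358 and 1040 CPM in WT and 2520, 2957 and 1267 CPM in KO (log2 fold change 0.82, SE 0.31, adjusted p = 0.132). KO3 again lay within the WT range. Flg passed by the exact test (adjusted p = 0.0396) and by DESeq2 (adjusted p = 0.0416), and Hrnr by the exact test (adjusted p = 0.0404). Crnn and Flg2 had log2 fold changes of 0.48 and -0.17 with adjusted p-values of 0.312 and 0.676, and without WT3 the value of Flg2 was 0.10.

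Tchh, encoding trichohyalin of the hair follicle's inner root sheath and the tongue, had 2708, 2809 and 3565 CPM in WT and 1953, 2752 and 2253 CPM in KO (log2 fold change -0.38, SE 0.21, adjusted p = 0.261). KO2 lay within the WT range and the other KO libraries below it. Per length, Rptn rose from 155 to 857 CPM per kb of exon, while Flg, the longer gene, had 67.8 and 119 CPM per kb and Tchh had 520 and 398 CPM per kb. The transcripts of Flg, Hrnr and Flg2 repeat themselves: 71.3%, 67.3% and 55.5% of their 100-base windows occurred more than once within the longest transcript, against 2.43% for Tchh. Reads counted only where they align once can therefore understate those 3 genes. Hrnr, Rptn and Tchh overlap Gm37245 on the opposite strand, and the strand setting of the counting is not given in the sources used here.

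Of the 6 scaffold and reinforcement genes, Ivl alone rose. It encodes involucrin, an early scaffold protein of the envelope, and had 37.6, 69.5 and 82.3 CPM in WT and 191, 232 and 130 CPM in KO (log2 fold change 1.55, SE 0.31, adjusted p = 0.029). The genotypes did not overlap, and WT1 was the lowest WT library here, unlike in the Sprr2 and Lce3 genes. Lor, encoding loricrin, the main envelope protein of the epidermis, had 3316, 1690 and 1751 CPM in WT and 1640, 2370 and 1398 CPM in KO (log2 fold change -0.32, SE 0.32, adjusted p = 0.522). WT1 was its highest library, and without WT1 the log2 fold change was 0.064. The plakins Evpl and Ppl, which tie the envelope to keratin and desmosomes, had log2 fold changes of 0.03 and 0.43 with adjusted p-values of 0.917 and 0.262. Cdsn, encoding the corneodesmosome protein that holds corneocytes together, had 1377 ± 286 CPM in WT and 1755 ± 427 CPM in KO (SD, n = 3 each; adjusted p = 0.360). Csta, a cystatin, had a log2 fold change of 0.31 (adjusted p = 0.353), with no position or length in the annotation used.

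Among the 4 enzymes, Casp14 rose, and the 3 transglutaminases did not pass (by DESeq2, Tgm5 did, with an adjusted p of 0.035). Casp14, on chromosome 10, encodes the caspase of cornification that helps break filaggrin down, and had 121, 135 and 112 CPM in WT and 366, 237 and 174 CPM in KO (log2 fold change 1.08, SE 0.26, adjusted p = 0.047). Every KO library was above every WT library. Tgm1, encoding the membrane-anchored transglutaminase of the envelope, had 237, 170 and 170 CPM in WT and 318, 274 and 190 CPM in KO (log2 fold change 0.44, adjusted p = 0.221). KO3 lay below WT1. Tgm5 was above WT in every KO library, with 47.9 ± 3.52 CPM in WT and 65.4 ± 9.28 CPM in KO (SD, n = 3 each) and an adjusted p of 0.096. Tgm3, the transglutaminase known also from hair, had 511, 306 and 216 CPM in WT and 305, 305 and 243 CPM in KO (log2 fold change -0.28, adjusted p = 0.543), and without WT1 its log2 fold change was 0.12.

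On chromosome 3 (GRCm38), the members ran from Lor (chr3:92080271-92083142) to Tchh (chr3:93442330-93449077), and the 2 groups with the highest fold changes lay in 2 short stretches. The limits of both stretches were set by the fold changes themselves. The first held Sprr2d, Sprr2e, Sprr2f, Sprr2g and Sprr2h, from 259 to 305 kb beyond Lor, all with log2 fold changes of 2.48 or more. Sprr2e, Sprr2f and Sprr2g passed the filter only through KO. Sprr2d and Sprr2f did not pass edgeR's quasi-likelihood test. Sprr2e spans chr3:92352143-92353449 and Sprr2h spans chr3:92385685-92387324, both on the plus strand. The second held Lce3c (chr3:92944486-92945733), Lce3d (chr3:92957390-92958505), Lce3e and Lce3f, from 864 to 912 kb beyond Lor, with log2 fold changes of 2.11 or more. Lce3e and Lce3f did not pass that test. Between the 2 stretches stood the Lce1 genes, from Lce1a1 at 566 kb to Lce1l at 770 kb, with values from 0.18 to 0.86. Of the genes next to the stretches, Sprr2a3 at 205 kb had -1.02, Sprr2b at 236 kb had 1.02 and Sprr2i at 328 kb had 1.23. Lce3a at 845 kb and Lce3b at 853 kb had 1.51 and 1.36, and Lce1m at 938 kb had -1.02. Sprr1b at 357 kb, which passed the test, had 1.93. Ivl (chr3:92570902-92573735, minus strand) and Rptn (chr3:93393699-93399442, plus strand) lay apart from both stretches.

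**Figure D4:**
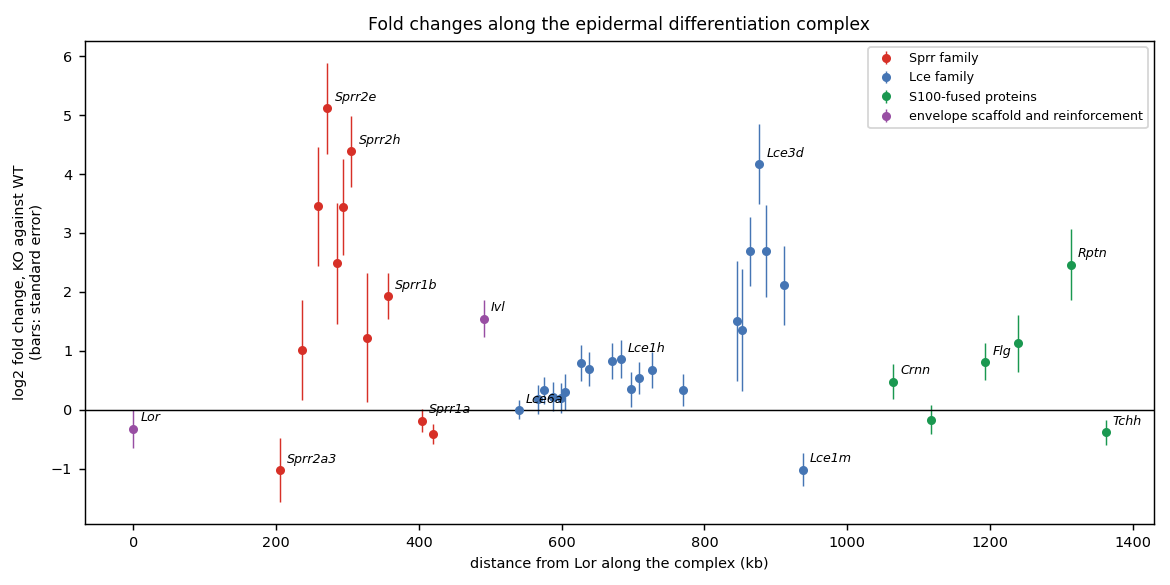
Log2 fold change (KO against WT libraries, bars of 1 standard error) of the tested members on chromosome 3 against their distance from Lor in kb, coloured by role. The values peak at Sprr2e and Sprr2h at 272 and 305 kb and at Lce3d at 877 kb, with the Lce1 genes between 0 and 1 in the middle and Sprr2a3 and Lce1m at -1.02.

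Single libraries set how many members passed. KO1 was the highest of all 6 libraries in 36 of the 48 members (23.3% of all tested genes), KO3 was the lowest KO library in 40 (41.7%), and WT1 was the highest WT library in 37 (28.8%). In 36 members KO3 was at or below the highest WT library, as it was in 74.7% of all tested genes. Without KO3, 26 members rose and Lce1m fell, where 16.9% of tested genes rose and 16.2% fell. Leaving out another library gave fewer calls across all genes as well: 8 members rose without WT1 (2.12% of tested genes), 2 without WT2 and 2 without WT3 (3.22% and 2.17%), 3 without KO1 and 3 without KO2 (1.98% and 1.41%). Sprr2e and Sprr2h passed in all 6 of these fits, Lce3d in 4, Sprr2g, Lce3c and Sprr1b in 2 each, and Rptn, Ivl and Casp14 in 1. The 9 members that rose kept positive log2 fold changes in each of these fits, the lowest being 0.81 for Casp14 without KO1. With edgeR's exact test, 18 members rose and 1 fell (7.76% and 7.15% of tested genes), and with DESeq2's Wald test 15 rose and 1 fell (9.5% and 7.61%). Among the 44 members with at least 1 CPM in every WT library, 15 rose by the exact test, 13 by DESeq2 and 23 without KO3. In each of these 1 of the 44 fell.

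**Figure D5:**
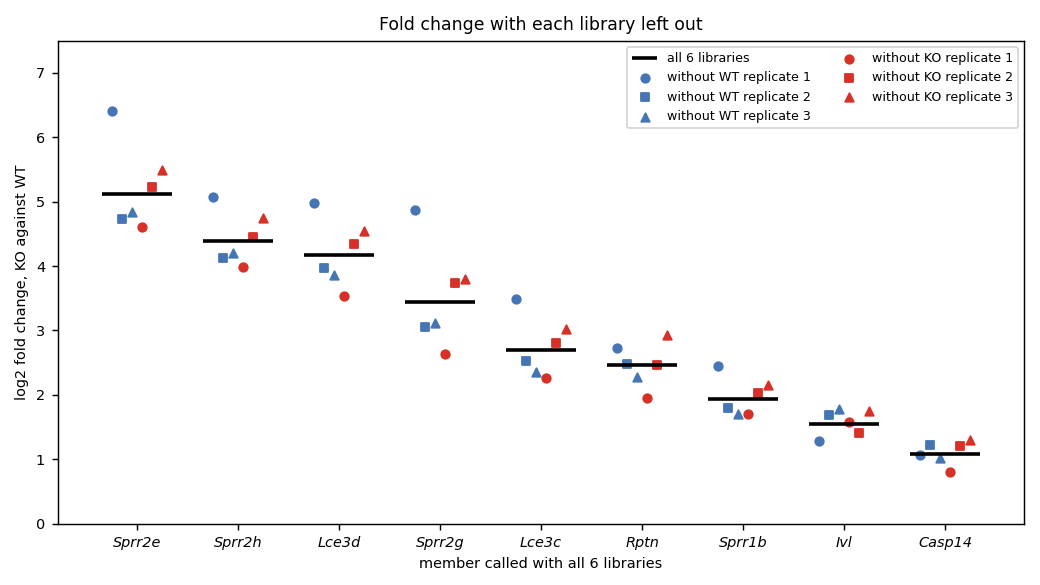
Log2 fold change of the 9 members that rose, with all 6 libraries (black line) and with each library left out in turn (symbols). All symbols lie above 0, the values without WT1 are highest for the Sprr2, Lce3 and Sprr1b genes, and the lowest values come from the fits without KO1 except for Ivl, where the lowest is without WT1.

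Genes that act on cornification or control it were compared in the same fit, where 4.38% of all tested genes rose and 2.09% fell. Of 14 cornification enzymes and inhibitors, 2 rose and 1 fell. Klk5 and Klk7, proteases that release corneocytes, rose from 117 ± 7.67 to 240 ± 51.1 CPM (SD, n = 3 each; log2 fold change 1.03, adjusted p = 0.014) and from 490 ± 79.9 to 1143 ± 340 CPM (SD, n = 3 each; log2 fold change 1.22, adjusted p = 0.028). Their inhibitor Spink5 had a log2 fold change of 1.29 (adjusted p = 0.10), with KO3 at 269 CPM within the WT range of 209 to 353 CPM. Padi3, a peptidylarginine deiminase that modifies filaggrin and trichohyalin, fell from 177 ± 24.8 to 102 ± 12.0 CPM (SD, n = 3 each; log2 fold change -0.80, adjusted p = 0.025).

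Of 24 regulators of keratinocyte differentiation, 2 rose and 1 fell, with a median log2 fold change of 0.24. Fosl1, an AP-1 subunit, had 6.01, 3.94 and 3.86 CPM in WT and 11.7, 11.6 and 12.6 CPM in KO (log2 fold change 1.38, adjusted p = 0.0090). Nfe2l2, encoding NRF2, which binds antioxidant response elements, had 128, 109 and 112 CPM in WT and 221, 237 and 255 CPM in KO (log2 fold change 1.03, adjusted p = 0.0031). In both genes the 3 KO libraries were close together, and KO3 was the highest, unlike in most members. Maf, a factor that promotes epidermal differentiation, fell from 170 ± 20.5 to 91.6 ± 9.00 CPM (SD, n = 3 each; log2 fold change -0.89, adjusted p = 0.012). Klf4 and Trp63 had log2 fold changes of 0.35 and 0.10 and did not pass. Of 12 tested S100 genes of the complex, S100a1 fell (log2 fold change -0.94, adjusted p = 0.048) as the only one to pass this test, and by the exact test and DESeq2 2 of them fell (7.15% and 7.61% of all tested genes). Of the 12, 5 had positive and 7 negative log2 fold changes. S100a8 and S100a9 had 1.47 and 2.33 without passing, with 64.6 and 66.9 CPM in KO1. Their highest values in the other libraries were 15.2 and 10.1 CPM, and without KO1 the log2 fold changes were -0.94 and -0.62.

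Markers of cell layers and other cell types moved with these results as follows, and their part in them was not tested. Over all tested genes, 4.38% rose and 2.09% fell by edgeR's quasi-likelihood test. These shares were 7.76% and 7.15% by the exact test and 9.5% and 7.61% by DESeq2. Of 15 suprabasal genes, 7 had an unadjusted p under 0.05 (29.6% of all tested genes did), 0 rose by edgeR's quasi-likelihood test (4 by the exact test and 5 by DESeq2) and Krt2 fell, from 2649 ± 406 to 116 ± 25.5 CPM (SD, n = 3 each; log2 fold change -4.52, adjusted p = 4.0e-05), while Krt1 and Krt10 had log2 fold changes of 1.18 and 0.64 with adjusted p-values of 0.058 and 0.163. The 15 genes summed to 29750 to 34068 CPM in WT and 39377 to 57571 CPM in KO, and the sum was lowest in KO3 among the KO libraries, as in most members. Krt1 and Krt10 were the largest parts of these sums, with means of 8002 and 8697 CPM in WT and 18183 and 13547 CPM in KO. The median log2 fold change of the 15 genes was 0.40. Of 4 keratins of hyperproliferative epidermis, Krt16 rose, from 259 ± 116 to 997 ± 517 CPM (SD, n = 3 each; log2 fold change 1.95, adjusted p = 0.036). Krt6a, Krt6b and Krt17 had log2 fold changes of 0.86, 1.48 and 0.20 without passing edgeR's quasi-likelihood test, while 3 of the 4 keratins rose by the exact test (Krt6a, Krt6b and Krt16) and 2 by DESeq2 (Krt6a and Krt16). The 4 keratins summed to 3833 to 5473 CPM in WT and 5776 to 8807 CPM in KO. Of 8 basal genes, Dst rose (log2 fold change 1.37, adjusted p = 0.034), 4 had positive and 4 negative log2 fold changes, and the median was -0.01. Krt14, Krt15 and Col17a1 had 0.15, -0.36 and -0.34 without passing the test. Every KO library lay above every WT library in 2 of the 8 and below in 2. The sums of the basal genes overlapped, at 10967 to 11849 CPM in WT and 11219 to 12479 CPM in KO.

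Genes of keratinocytes (Krt14, at a mean of 3674 CPM in WT), skeletal muscle and hair follicles were all present in the libraries, which are labelled lip. Of 8 skeletal muscle genes 2 fell by edgeR's quasi-likelihood test, 7 by the exact test and 6 by DESeq2, all 8 had an unadjusted p under 0.05, and their sums were 10967 to 13975 CPM in WT and 5305 to 8314 CPM in KO. Of 9 hair follicle genes 0 passed in either direction by edgeR's quasi-likelihood test (7 had an unadjusted p under 0.05, against 29.6% of all tested genes, and 1 fell by the exact test and 2 by DESeq2), with sums of 5710 to 7259 CPM in WT and 3840 to 5000 CPM in KO. Of 7 dermal fibroblast genes 0 passed by the quasi-likelihood test, the exact test or DESeq2, with 1 at an unadjusted p under 0.05, and their sums of 6516 to 8446 CPM in WT and 2829 to 6779 CPM in KO were highest in KO3 among the KO libraries. Muscle and follicle sums were also highest in KO3 among the KO libraries, the reverse of most cornification genes. Oral mucosa genes summed to 5214 CPM in WT1 and to 332 to 452 CPM in the other 5 libraries, and of 4 tested, Krt84 fell (log2 fold change -0.81, adjusted p = 0.016). By the exact test 3 of the 4 fell (Krt4, Krt13 and Krt84), where 7.15% of all tested genes did. By DESeq2, which gave no adjusted p for Krt4 and Krt13, Krt84 fell (7.61% of all tested genes did). Krt24 had a log2 fold change of 0.30 without passing. Unlike Krt4 and Krt13, Krt84 did not stand apart in WT1, with 105, 106 and 96.5 CPM in WT1, WT2 and WT3. Without WT1, the log2 fold change of Krt4 was 0.91 in place of -3.43, and the Lce3 median was 3.55. Of 3 adipocyte genes Fabp4 fell (log2 fold change -0.65, adjusted p = 0.030), and of 3 sebaceous gland genes Scd3 rose (log2 fold change 3.19, adjusted p = 0.0025). Mc5r and Scd1, also of the sebaceous gland, had log2 fold changes of -0.56 and -0.41 without passing. The 3 sebaceous gland genes summed to 3195 to 4086 CPM in WT and 2211 to 3860 CPM in KO.

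Of the markers of immune cells, 3 T cell, 5 macrophage and 2 neutrophil genes were tested and 0 passed by edgeR's quasi-likelihood test, the exact test or DESeq2, with 0, 1 and 1 at an unadjusted p under 0.05. T cell markers summed to 3.69 to 6.06 CPM in WT and 4.19 to 9.40 CPM in KO, macrophage markers to 352 to 392 CPM and 266 to 381 CPM, and neutrophil markers to 4.33 to 6.23 CPM and 6.35 to 8.32 CPM. The neutrophil granule genes Camp and Ngp were untested, at no more than 0.135 CPM in any library. Of 3 endothelial and 3 melanocyte genes, 0 passed by any of these 3 tests, with 1 and 0 at an unadjusted p under 0.05.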

How the data were processed

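Reads of 6 mRNA libraries, 1 per mouse, were mapped by the authors to GRCm38 with TopHat2 2.0.8 and Bowtie2 2.1.0, versions that the submitters' processing notes also name. The deposited values are HTSeq-count's raw counts of uniquely assigned reads per gene symbol, without normalization, and the counting mode is not given in the sources used here. All 26814 symbols had a name, and genes at 1 CPM or more in 3 or more libraries (15009, 99.8% of counts) were tested with edgeR 4.0.16 in R 4.3.3 (TMM, glmQLFit with legacy=FALSE, glmQLFTest, Benjamini-Hochberg over all tested genes, threshold 0.05). CPM divide counts by TMM-scaled library sizes. Standard errors are the absolute log2 fold change divided by the square root of the quasi-likelihood F statistic. Libraries are separate mice.

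Members and lists were chosen with earlier results of these data known. Values per library are given for members that passed, for Lor, Flg, Ivl, Tgm1, Tgm3, Casp14, for the member with the highest mean CPM per role and for others where a result needed them. Genes of other lists are named where they passed or are abundant, and Spink5, Klf4, Trp63 and Lce1m were chosen after their values were seen. Positions, lengths and 100-base windows come from GENCODE M21 (24804 symbols found) and promoter windows, aligned with Biopython 1.88, from RefSeq. Figures used matplotlib 3.10.9. Alternatives were edgeR's exact test, DESeq2 1.42.0, the older quasi-likelihood fit, 3 normalizations, 2 filters, an adjusted p under 0.1, a replicate block, leaving out each library and, chosen after seeing the data, removing the trend on gene length. The code was tested on simulated data.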

Additional observations from a re-analysis of the deposited data

How the results depend on the processing

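The 9 members that rose in KO passed with the exact test of edgeR, the Wald test of DESeq2, upper-quartile scaling, no filter, the length trend and the replicate block. Rptn did not pass with the older quasi-likelihood fit (adjusted p = 0.0507) or DESeq2's size factors (0.0511), nor Casp14 with library size alone (0.0519). The count of members that rose was 18 by the exact test, 15 by DESeq2 and 16 with the replicate block (3.86% of tested genes), and 5 with at least 10 counts in every library (3.24%), where Sprr2e was not tested and Rptn, Sprr2g and Casp14 did not pass. With single libraries left out it ranged from 2 to 26, and the cause was not tested. The number that fell was 1 by the exact test, DESeq2, the replicate block and an adjusted p under 0.1, and 0 to 1 with a library left out. In the other lists together 7 genes rose and 8 fell, where 4.38% of all tested genes rose and 2.09% fell. By the exact test 15 and 17 did so (all tested genes: 7.76% and 7.15%), and by DESeq2 18 and 15 (9.5% and 7.61%). At an adjusted p under 0.1, 14 and 16 did so (8.32% and 8.53%). In these lists, 12 rose without a filter (3.41% of all tested genes) and 11 with the length trend removed (4.9%). Left-out libraries gave 2 to 21 higher and 1 to 32 lower there. The highest of both came without KO3 (16.9% and 16.2% of all tested genes). Medians ranged from 0.35 without KO1 to 0.86 without KO3, and the share of counts (KO minus WT, percentage points) from 0.361 to 0.990 around 0.585.

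Members near 0 changed sign. Lce6a had 0.027 by DESeq2 and with its size factors, 0.045 without a filter, 0.0025 with at least 10 counts, 0.22 with the length trend removed and -0.037 to 0.12 with a library left out. Evpl had -0.029 with upper-quartile scaling, -0.012 with the length trend removed and -0.021 to 0.14 with a library left out, and Sprr1a had 0.039 with the length trend removed. Left-out libraries took Flg2 from -0.32 to 0.10 (without WT3), Tgm3 from -0.53 to 0.12, Lor from -0.51 to 0.064 and Krt4 from -4.11 to 0.91 (the last 3 without WT1). They took Sprr2b from 1.65 to -0.66 and Sprr2i from 3.24 to -0.53, both without KO1. Same-numbered WT and KO libraries had correlations of their deviations of -0.19, 0.29 and 0.31, and differently numbered ones from -0.50 to 0.41. With so few libraries, these values cannot decide whether replicate numbers pair the mice. Depth limits the Sprr2 genes most, since Sprr2e, Sprr2f and Sprr2g had 7, 8 and 10 counts in WT2.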

Other observations

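Stfa3, a stefin-type cysteine protease inhibitor gene related to Csta and chosen after its values were seen, had 4.67, 3.82 and 4.26 CPM in WT and 30.6, 14.3 and 18.0 CPM in KO (log2 fold change 2.30, SE 0.29, adjusted p = 0.0031), and it passed in all 6 fits with a library left out. Stfa1 and Stfa2 were below the filter, with at most 0.471 and 0.339 CPM in WT and at most 2.96 and 4.44 CPM in KO. Tchhl1, an S100-fused gene of the complex that the naming rule leaves out and that was also chosen after its values were seen, had a log2 fold change of 0.32 (adjusted p = 0.623), with 33.0 CPM in KO3 against 115 and 117 CPM in KO1 and KO2.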
